A study of Mus musculus with 78 samples.

Results

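The comparison described here set 3 calorie-restricted male livers against 3 control male livers at 6 months of age, across all expressed genes, which took 6 of the 78 libraries of the series. All 6 mice were males of the UM-HET3 stock, a genetically heterogeneous cross of inbred mouse strains. The restricted mice had received 40% less of the Purina 5LG6 chow for 2 months, and the controls were littermates on the control diet, with no other agent or allele in either group. The series as a whole measured liver RNA in 26 groups of 3 mice under interventions that lengthen mouse lifespan, and 3 restricted and 3 control females of 6 months and 3 restricted and 3 control males of 12 months (8 months of restriction) were used here for comparison. Acarbose, rapamycin, Protandim and alpha-estradiol groups of 6 months, of both sexes, also entered the estimate of spread. At 12 months the fits also held the acarbose and rapamycin groups and the restricted and control females. Those control females served for the lists of sex-biased genes. Each library came from poly(A)-selected RNA of whole frozen liver. The labels give neither the hour of collection nor the time since the last meal, and the p-values measure the spread between the labelled biological replicates. In RNA from whole tissue, fewer cells of a type and less RNA per cell cannot be told apart.

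The liver makes and secretes most plasma proteins, so its hepatocytes hold a large endoplasmic reticulum (ER) in which chaperones such as BiP fold newly made chains, and the unfolded protein response raises those chaperones when folding falls behind. Hepatocytes also follow a circadian clock that feeding time can set, and they switch between making and using glucose and fat as food comes and goes. Male and female mouse livers express different sets of cytochrome P450, urinary protein and transporter genes, which depend on the pulsatile male pattern of growth hormone acting through STAT5B.

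Each of the 6 libraries held 25888571 to 32332011 counts assigned to genes. Hepatocyte markers were high in all 6, and sex-specific transcripts matched the labelled sex in 6 of 6. Restricted male 2 stood apart by skeletal muscle RNA: 19 muscle genes that had at most 20 counts in each other library summed to 4938 counts there and to at most 47 in any other, among them Acta1 with 1846 counts against at most 1 and Myh1 with 681 against at most 1. These 4938 counts were 0.0158% of the library, and 0 of the 11 muscle markers that passed the filter on low counts were called, with a median log2 fold change of 3.50. A gene raised in a single library has a wide spread and is hard to call. These 0 calls therefore do not measure the part of muscle RNA. Of the other cell types checked by marker lists (Kupffer cells, sinusoidal endothelium, stellate cells, cholangiocytes, B cells, T and NK cells, neutrophils and erythroid cells), 0 members were called in either direction. Summed adipose markers were uneven, from 3 to 715 counts, highest in control male 3 and, among the restricted, in restricted male 2. Besides leaving out each library, 1 alternative fit left out all libraries that hold RNA of another tissue. Those are libraries of any group in the fit with over 1000 counts of a marker list of another tissue. Of the 6 libraries here, only restricted male 2 passed that bound. The part of adipose or muscle RNA in the results below was not tested further.

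Restriction changed 1162 of 14816 tested genes at an adjusted p under 0.05 (edgeR quasi-likelihood test with Benjamini-Hochberg adjustment), which is 7.84%. Of these, 542 were higher in restricted males (3.66% of genes tested) and 620 lower (4.18%), and the median log2 fold change of all tested genes was -0.01. The count was 553 without restricted male 2, the library with muscle RNA, and 527 of those 553 were among the 1162. It was also 559 without restricted male 3 and 593 without control male 1, 768 without control male 3, and 351 when the spread was estimated from the 6 libraries alone. Of 97 named genes called, 52 were not called in the fit of the 6 libraries alone. Without the libraries that hold RNA of another tissue, 47 were not called. The genes below do not each carry the values of these 2 fits, so their absence is not a pass. In the gene lists examined below, some transcripts for ER folding, proteasome subunits, major urinary proteins and other male-biased proteins fell, and transcripts for glycogen and glucose handling, drug metabolism, female-biased proteins, ribosomal proteins and the respiratory chain rose, with the counts given list by list. Levels below are CPM, the counts scaled to a common library size, in the order of replicates 1, 2 and 3, and changes are log2 fold changes, restricted minus control, ± SE with n = 3 per group and the adjusted p of that test.

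**Figure D1:**
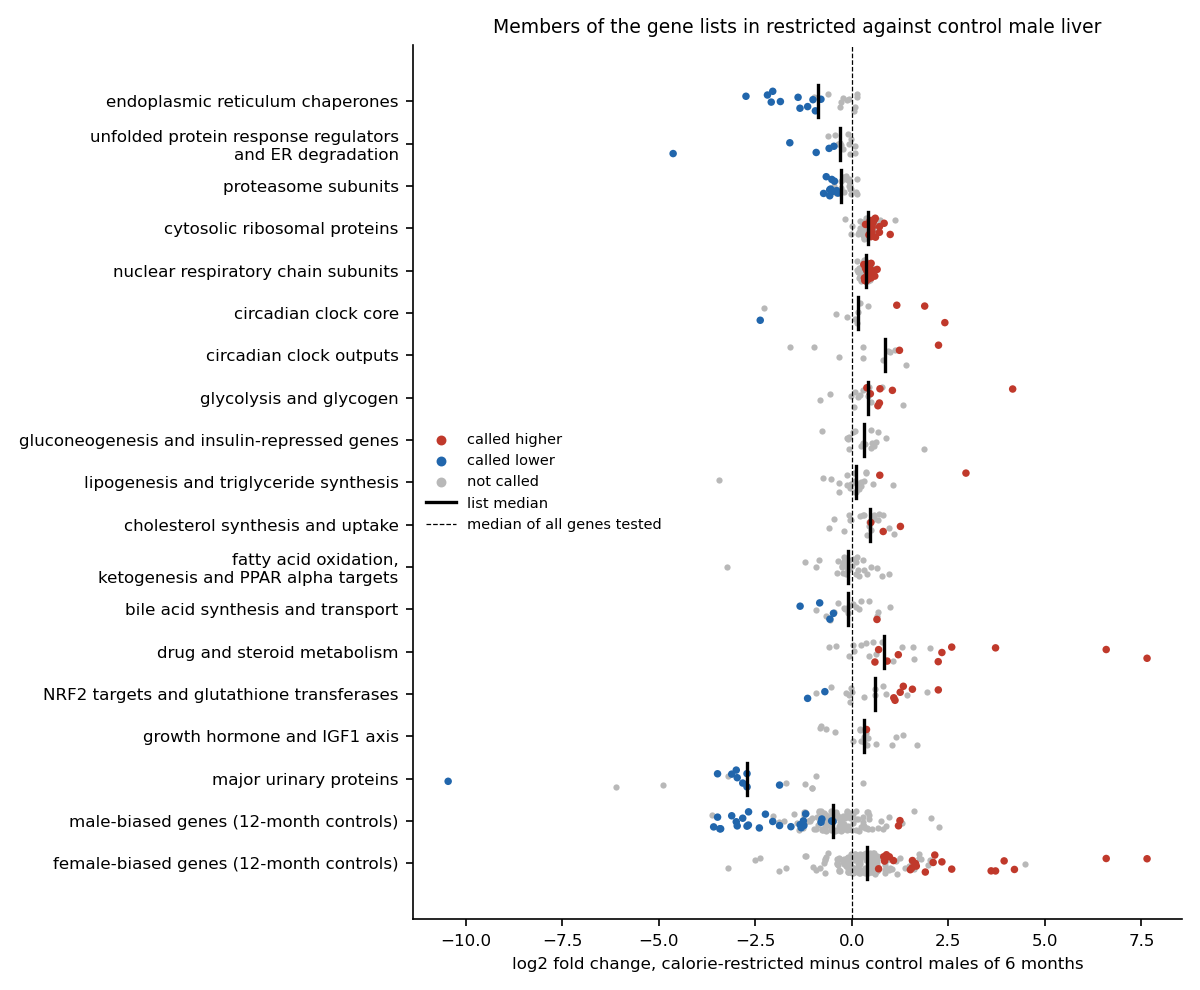
Each point is 1 gene of a list, placed by its log2 fold change in restricted against control males of 6 months (n = 3 per group). Red and blue points passed an adjusted p under 0.05, grey points did not, the thick line is the median of the list and the dashed line the median of all 14816 genes. The 11 called ER chaperones and the 9 called major urinary proteins lie to the left, and the 10 called drug metabolism genes to the right. The leftmost point, Mup15, had 359.6, 0.560 and 88.9 CPM in controls and 0, 0.173 and 0.139 CPM in restricted males, so its fitted position is not a measure of size.

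Transcripts for protein folding in the ER were lower after restriction. Of 22 ER chaperone and folding genes, 11 fell and 0 rose, with a list median of -0.88 against -0.01 over all genes. Of 17 regulators of the unfolded protein response and of ER-associated degradation, 5 fell and 0 rose, with a median of -0.31. Among these lists, 9 genes hold the ER stress element in their RefSeq promoter (GRCm38.p6, 250 bases before to 50 after the start), which is the reason to show it. The element was searched as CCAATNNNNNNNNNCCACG on both strands and is the letter pattern through which ATF6 acts with NF-Y. Its 10 sites in these genes, each written 5′ to 3′ in the direction of the motif with the fixed letters in capitals, read:
Hspa5: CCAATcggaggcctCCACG
Hsp90b1 far site: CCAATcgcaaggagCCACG
Hsp90b1 near site: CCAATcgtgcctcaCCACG
Calr: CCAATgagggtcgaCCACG
Canx: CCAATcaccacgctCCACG
Pdia6: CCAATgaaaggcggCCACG
Dnajc3: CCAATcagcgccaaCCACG
Creld2: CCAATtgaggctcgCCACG
Syvn1: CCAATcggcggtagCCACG
Derl3: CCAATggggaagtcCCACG
The Hspa5 site lies at chr2:34772025-34772043, and its first base is 65 bases upstream of the RefSeq start. The gene span given below is from GENCODE and begins before that start, so the site lies within it.

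The element was found in 39 of all 32851 RefSeq promoters (0.119%). Counted by gene, over any of its promoters, it was found in 0.172% of tested genes with an entry. That compares with 7 of the 16 ER chaperone genes with an entry and 2 of the 15 regulators and degradation genes. These 9 genes are members of the ER lists, which were chosen with earlier results known, so the share that fell is a description. The 6 that fell were Hspa5, Hsp90b1, Calr, Creld2, Syvn1 and Derl3. Canx (-0.24, adjusted p = 0.261), Pdia6 (-0.62, adjusted p = 0.204) and Dnajc3 (-0.29, adjusted p = 0.37) were not called by the edgeR test. A match to these letters is a description of the sequence, and binding was not measured. The 250 bases before the Hspa5 start (chr2:34771840-34772089, plus strand) show the site in its context, with the element in capitals:
Hspa5 promoter: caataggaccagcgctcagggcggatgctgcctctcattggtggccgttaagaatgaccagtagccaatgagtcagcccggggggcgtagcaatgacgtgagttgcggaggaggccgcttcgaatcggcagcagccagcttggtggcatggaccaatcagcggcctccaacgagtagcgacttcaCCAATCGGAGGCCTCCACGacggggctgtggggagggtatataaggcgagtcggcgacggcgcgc

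Hspa5 (ENSMUSG00000026864, chr2:34771970-34777547) encodes BiP, the main chaperone of the ER lumen. Its level was 1019.9, 903 and 1756 CPM in the 3 control males and 329, 368 and 321 CPM in the 3 restricted males. The restricted livers lay close together and below every control, and control male 3 stood well above the other controls. The change was -1.85 ± 0.34 (edgeR adjusted p = 0.00144). Hyou1, a large chaperone and exchange factor for BiP, went from 263, 258 and 502 to 84.5, 89.05 and 73.1 CPM (-2.05 ± 0.39, edgeR adjusted p = 0.0019). Manf, a secreted ER-resident factor induced by stress, went from 108, 110.5 and 236 to 31.1, 44.9 and 30.9 CPM (-2.09 ± 0.43, edgeR adjusted p = 0.0038). Groups did not overlap for either gene, and control male 3 was again the highest.

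Calr (ENSMUSG00000003814, chr8:84841850-84846934), the lectin chaperone calreticulin, was more even among controls, at 780.1, 763 and 903 CPM against 321, 357 and 284 CPM after restriction (-1.35 ± 0.24, edgeR adjusted p = 0.00112). Sdf2l1, a partner of the ER DnaJ proteins, had the largest decrease among the called chaperones. It stood at 39.5, 32.6 and 89.96 CPM in controls and 7.14, 10.8 and 6.26 CPM in restricted males (-2.75 ± 0.65, edgeR adjusted p = 0.0101). Its adjusted p was 0.0593 without restricted male 3 and 0.0578 without control male 3. Creld2, an ER protein with disulfide isomerase activity, went from 65.7, 57.3 and 147 to 17.5, 21.2 and 20.6 CPM (-2.19 ± 0.57, edgeR adjusted p = 0.0178), and its adjusted p was 0.053 without restricted male 1, 0.0643 without restricted male 2, 0.0688 without restricted male 3 and 0.104 without control male 3. The disulfide isomerases Pdia4 (-1.40 ± 0.30) and Pdia3 (-0.95 ± 0.23), the co-chaperones Dnajb11 (-1.15 ± 0.24) and Dnajb9 (-0.80 ± 0.25) and the ER HSP90 protein Hsp90b1 (-1.01 ± 0.25) were also called lower.

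In the degradation arm, the ubiquitin ligase gene Syvn1 stood at 156, 117 and 264 CPM in controls and 57.7, 67.5 and 50.4 CPM in restricted males. That was a change of -1.61 ± 0.36 with an adjusted p of 0.00638 in edgeR, which was 0.0544 without control male 3. Its adaptor Sel1l changed by -0.93 ± 0.19 and Vcp, the ATPase that extracts substrates from the membrane, by -0.59 ± 0.11. Derl3, a channel component of the same route, had 11.95, 3.000 and 47.3 CPM in controls, widely spread, and 0.904, 1.21 and 0.382 CPM in restricted males (-4.63 ± 1.11, edgeR adjusted p = 0.0107). For Derl3 this p was 0.065 without restricted male 3 and 0.0777 without control male 3. It was 0.139 in the fit of the 6 libraries alone and 0.0797 without the libraries that hold RNA of another tissue. Xbp1, whose spliced form drives ER genes, changed by -0.47 ± 0.13 (edgeR adjusted p = 0.0296). Of 25 genes for protein entry into and exit from the ER, 1 fell (Sec23b, -0.72) and 2 rose (Sar1b, 0.48, and Spcs1, 0.35), with a median of -0.15. The adjusted p was 0.0515 without restricted male 3 and 0.083 without control male 3 for Sec23b, 0.0501 without restricted male 2, 0.113 without restricted male 3 and 0.0695 without control male 1 for Sar1b and 0.132 without restricted male 2, 0.162 without restricted male 3, 0.148 without control male 1, 0.0855 without control male 2 and 0.0507 without control male 3 for Spcs1.

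The libraries of the restricted group lay wholly below those of the controls for 15 of the 22 chaperone genes and wholly above for 0, where 25.8% of all tested genes had groups that did not overlap in either direction. Leaving out single libraries changed the number of chaperones called lower from 11 to 5 without control male 3, 6 without restricted male 3 and 8 without restricted male 2. For the regulators the count of 5 became 2 without control male 3 and 3 without restricted male 3. Chaperone medians stayed between -0.96 and -0.67 over all alternatives.

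**Figure D2:**
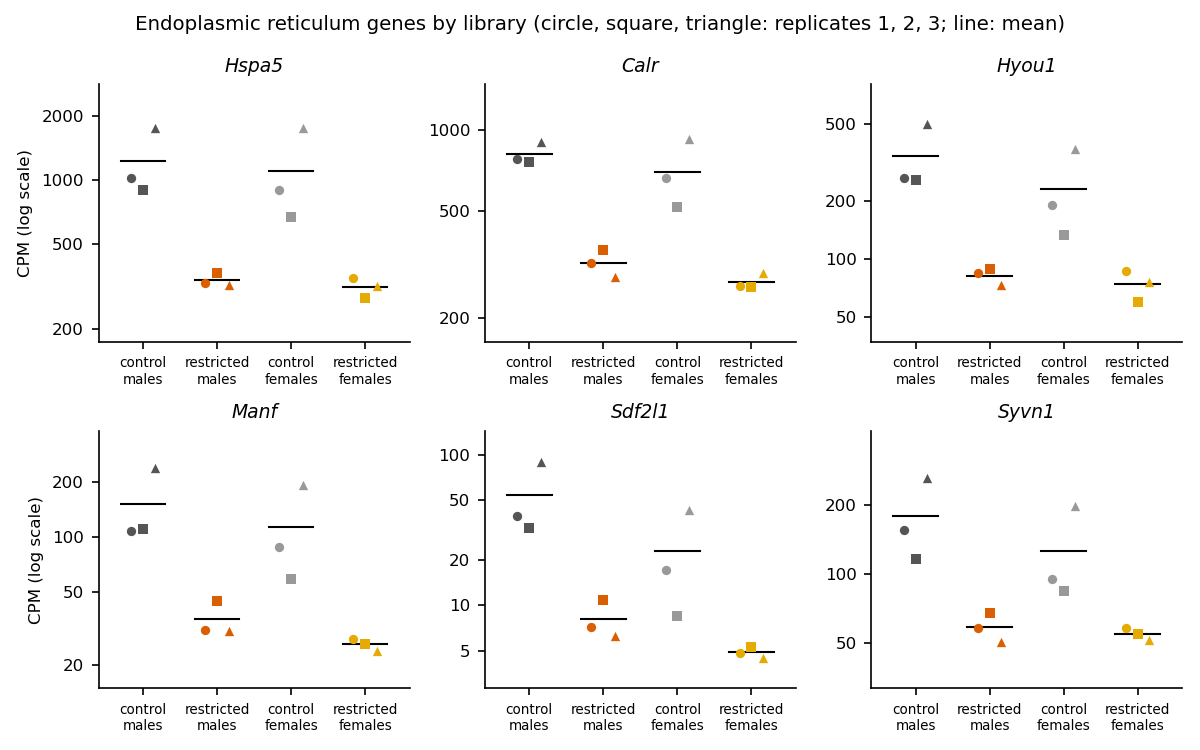
Level of 6 ER genes in each library of 6 months, in CPM on a log axis, with restricted and control groups of both sexes (n = 3 each, black line the group mean). In males the 3 restricted libraries lie below the 3 controls in each panel, and control male 3 (triangle) is the highest control.

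Proteasome, ribosome and respiratory chain transcripts moved less per gene but in many members. Of 32 proteasome subunits, the parts of the protease complex that degrades ubiquitin-tagged proteins, 11 fell and 0 rose, with a median of -0.29. Psmd1, a scaffold subunit of the regulatory particle, went from 103, 111 and 101 to 62.7, 62.3 and 73.00 CPM (-0.67 ± 0.09, edgeR adjusted p = 7.35e-05), and the groups did not overlap. Psmd2 (-0.57 ± 0.10) and the deubiquitinating subunit Psmd14 (-0.73 ± 0.13) fell by similar amounts. The count of 11 was 7 without control male 2 or restricted male 2, 5 without restricted male 1 and 3 in the fit of the 6 libraries alone.

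Of 79 cytosolic ribosomal protein genes, 22 rose and 0 fell, with a median of 0.42 and 76 estimates above 0. Rpl3 went from 157, 155 and 126 to 212, 225 and 281 CPM (0.71 ± 0.13, edgeR adjusted p = 0.00122). Of 76 nuclear genes of the respiratory chain and ATP synthase, 23 rose and 0 fell, with a median of 0.35 and 76 estimates above 0. Ndufa5, a complex I subunit, went from 49.9, 60.4 and 50.5 to 73.6, 77.9 and 80.9 CPM (0.53 ± 0.10, edgeR adjusted p = 0.00196, and 0.0569 in the fit of the 6 libraries alone), and the complex II subunit Sdhb changed by 0.59 ± 0.13. The adjusted p for Sdhb was 0.0595 in the fit of the 6 libraries alone and 0.0675 without the libraries that hold RNA of another tissue. Counts for these lists of small shifts depended on single libraries. The 22 ribosomal genes became 2 without control male 1, 6 without control male 3 or restricted male 3, 9 without restricted male 2 and 52 without control male 2. The 23 respiratory genes became 5 without control male 1 or restricted male 3, 6 without control male 3 or restricted male 2 and 40 without restricted male 1. With the 6 libraries alone in the fit, 1 ribosomal and 0 respiratory genes were called, while the medians were 0.41 and 0.35.

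Clock genes changed in both directions. Of 12 core clock genes, 3 rose and 1 fell. Cry1 (ENSMUSG00000020038, chr10:85131700-85185064), a repressor of CLOCK and BMAL1, stood at 7.54, 9.20 and 6.49 CPM in controls and 35.6, 44.4 and 43.1 CPM in restricted males, with every restricted liver far above the highest control (2.41 ± 0.27, edgeR adjusted p = 3.26e-06). Nr1d1 (ENSMUSG00000020889, chr11:98767932-98775333), which encodes the repressor REV-ERB alpha, stood at 229.5, 94.6 and 115 CPM in controls and 37.04, 23.00 and 24.6 CPM in restricted males (-2.38 ± 0.36, edgeR adjusted p = 0.00019). Per2, a partner of the CRY repressors, went from 28.1, 15.1 and 40.4 to 73.3, 57.7 and 56.2 CPM (1.16 ± 0.36, edgeR adjusted p = 0.0444). Its adjusted p was 0.107 without restricted male 1, 0.087 without restricted male 2, 0.0815 without restricted male 3, 0.119 without control male 1 and 0.19 without control male 2, and 0.051 with a replicate block.

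Among the core members that were not called, Arntl, which encodes BMAL1, had 4.74, 11.4 and 2.59 CPM in controls and 5.88, 8.46 and 6.54 CPM in restricted males, and Per3 had 24.6, 9.12 and 46.8 and 40.7, 33.2 and 34.4 CPM. In both genes the 3 restricted livers lay close together, within the wider spread of the 3 controls. Clock (-0.42), Per1 (-0.13), Cry2 (0.21), Nr1d2 (0.13) and Rora (0.07) had adjusted p-values from 0.172 to 0.881, and Clock had an adjusted p of 0.0426 without control male 3. Npas2 was near the detection limit, at 0.510, 0.880 and 0.336 CPM in controls and 0.0323, 0.0694 and 0.243 CPM in restricted males. Of 12 clock output genes, 2 rose and 0 fell: Lonrf3 went from 2.51, 3.04 and 2.96 to 15.1, 13.6 and 11.7 CPM (2.24 ± 0.22, edgeR adjusted p = 5.47e-07) and Tspan4 from 47.2, 37.96 and 59.2 to 100.4, 114 and 125 CPM (1.23 ± 0.24, edgeR adjusted p = 0.00188).

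The clock factors CLOCK and BMAL1 bind the E-box CACGTG, which reads the same on both strands. It was present in 7.15% of all RefSeq promoters. Counted by gene, over any of its promoters, it was present in 11.4% of tested genes with an entry, in 3 of 16 ER chaperone genes and in 3 of 15 ER regulator and degradation genes. By the same count it was present in 2 of 10 core genes with an entry (Cry1 and Per1) and in 5 of 10 output genes, Lonrf3 and Tspan4 among them. The 250 bases before the Cry1 start (chr10:85185055-85185304, minus strand) are shown because Cry1 had the largest increase of the core list, with the E-box in capitals:
Cry1 promoter: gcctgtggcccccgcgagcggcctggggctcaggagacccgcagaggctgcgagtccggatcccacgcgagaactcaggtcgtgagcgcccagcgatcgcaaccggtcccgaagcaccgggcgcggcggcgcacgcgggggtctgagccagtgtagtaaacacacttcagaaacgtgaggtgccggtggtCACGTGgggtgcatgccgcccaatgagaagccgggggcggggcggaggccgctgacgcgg

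**Figure D3:**
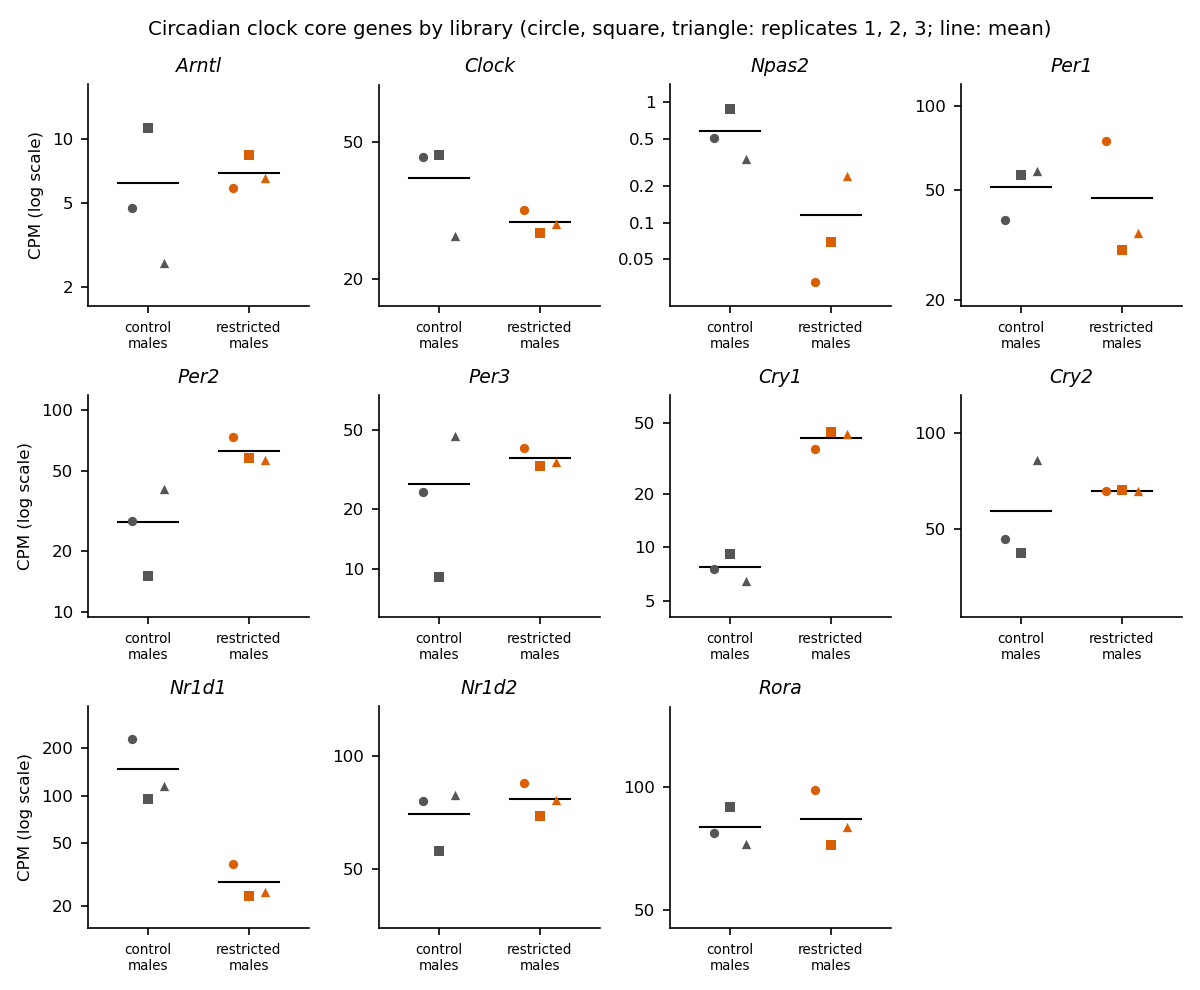
Level of 11 core clock genes in each male library of 6 months, in CPM on a log axis (n = 3 per group, black line the group mean). Cry1 and Per2 lie higher and Nr1d1 lower in all 3 restricted livers than in any control, and for Arntl and Per3 the restricted livers lie within the spread of the controls.

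Among liver genes that differ between the sexes, male-biased genes were more often lower and female-biased genes more often higher after restriction. Lists of sex-biased genes were taken from the 12-month control mice, which this comparison does not use. Of 141 tested male-biased genes, 25 fell and 2 rose, with a median of -0.49. Of 169 female-biased genes, 23 rose and 0 fell, with a median of 0.39. In a textbook list of male-biased liver genes 7 of 17 fell and 0 rose, and in a textbook list of female-biased genes 8 of 28 rose and 0 fell. The lists overlap: 7 of the called genes of the 12-month male-biased list are major urinary protein genes, and 6 of the called female-biased genes are in the drug metabolism list below. The count of 25 became 13 without restricted male 3, the textbook count of 7 became 2 without restricted male 3 and 4 without control male 1, the textbook count of 8 became 5 without restricted male 3, control male 1 or control male 3, and the count of 23 became 15 without control male 1.

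Cyp2b9 (ENSMUSG00000040660, chr7:26173411-26210661), a steroid hydroxylase of female liver, rose from 1.53, 1.28 and 1.24 to 60.8, 91.8 and 238 CPM in males (6.59 ± 0.63, edgeR adjusted p = 6.41e-07). Control females had 559, 559 and 724 CPM and restricted females 484, 538 and 492 CPM, all above the highest restricted male. The transporter gene Slc22a26 rose from 0.401, 0.400 and 0.538 to 4.62, 5.31 and 15.3 CPM (4.21 ± 0.53, edgeR adjusted p = 2.77e-05), against 122.8, 101 and 73.4 CPM in control females. Rdh16f2, a retinol dehydrogenase family member in neither female-biased list, rose from 13.5, 24.2 and 53.5 to 72.4, 141 and 188 CPM (2.14 ± 0.45, edgeR adjusted p = 0.00409, and 0.149 in the fit of the 6 libraries alone). The acyl-CoA thioesterase gene Acot3 changed by 1.90 ± 0.53 (edgeR adjusted p = 0.0268), and its adjusted p was 0.161 without restricted male 3, 0.0609 without control male 1 and 0.113 without control male 3. For Acot3 it was 0.187 in the fit of the 6 libraries alone and 0.0638 without the libraries that hold RNA of another tissue.

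Major urinary proteins, the pheromone carriers that male liver secretes in large amounts, fell in 9 of 19 tested genes and rose in 0, with a median of -2.72. Reads cannot be assigned with certainty among these near-identical genes, so the family was also summed. The 21 genes together took 4.74%, 2.98% and 3.72% of the assigned counts in the 3 control males and 0.874%, 1.23% and 1.09% in the 3 restricted males. The groups did not overlap, and the share was 3.81% ± 0.881 in controls and 1.06% ± 0.180 in restricted males (SD, n = 3). Control females had shares of 0.326%, 0.430% and 0.946%, and restricted females 0.0461%, 0.0816% and 0.0579%, so the family was lower after restriction in females too. Among single genes, Mup21 went from 274, 335 and 352 to 54.7, 48.1 and 19.6 CPM (-2.97 ± 0.43, edgeR adjusted p = 0.000138). Mup20, the pheromone darcin, went from 2244, 989 and 3828 to 80.9, 695 and 108 CPM (-2.997 ± 0.75, edgeR adjusted p = 0.0146), with restricted male 2 nearest to the controls. The adjusted p of Mup20 was 0.0528 without restricted male 1, 0.084 without restricted male 3, 0.0647 without control male 3 and 0.23 in the fit of the 6 libraries alone. The count of 9 called members became 5 without restricted male 3 and was 9 without restricted male 2. It was 2 without the libraries that hold RNA of another tissue, a setting that leaves out restricted male 2 and libraries of other groups in the fit.

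Other male-biased genes fell as well. C6 (ENSMUSG00000022181, chr15:4727175-4814967), a terminal complement component, went from 185, 212 and 240.2 to 63.4, 52.2 and 19.1 CPM (-2.24 ± 0.34, edgeR adjusted p = 0.000187, and 0.0643 in the fit of the 6 libraries alone), and C9, its partner in the membrane attack complex, from 565, 519 and 581 to 231, 249 and 190.3 CPM (-1.31 ± 0.17, edgeR adjusted p = 2.77e-05). Cyp4a12b, a fatty acid hydroxylase of male liver and kidney, went from 97.7, 30.6 and 70.3 to 1.45, 16.9 and 0.487 CPM (-3.40 ± 0.81, edgeR adjusted p = 0.0101), and its log2 fold change was -6.06 without restricted male 2, its highest restricted library, while its adjusted p was 0.263 in the fit of the 6 libraries alone. Cyp7b1, the oxysterol hydroxylase of the alternative bile acid route, went from 471, 417 and 397 to 189, 203 and 114 CPM (-1.34 ± 0.36, edgeR adjusted p = 0.02). For Cyp7b1 this p was 0.116 without restricted male 3 and 0.0705 without control male 1. Textbook male-biased genes that were not called included Cyp2d9 (-0.68 ± 0.43, edgeR adjusted p = 0.366), Hsd3b5 (-1.49 ± 0.63, edgeR adjusted p = 0.144) and Slco1a1 (-0.67 ± 0.59, edgeR adjusted p = 0.549).

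The growth hormone and IGF1 axis itself was called in 1 of 19 members. Stat5b, the transducer of the growth hormone receptor, went from 72.3, 70.4 and 61.1 to 80.7, 97.9 and 84.7 CPM (0.37 ± 0.11, edgeR adjusted p = 0.0416). Its adjusted p was 0.195 without restricted male 2, 0.0788 without restricted male 3, 0.0637 without control male 1, 0.0695 without control male 2 and 0.153 without control male 3. The receptor gene Ghr had 538, 443 and 466 CPM in controls and 621, 624 and 603 CPM in restricted males, with groups that did not overlap and an edgeR adjusted p of 0.172 (0.35 ± 0.16). Igf1 had 527, 586 and 436 and 669.5, 616 and 551 CPM (0.25 ± 0.15, edgeR adjusted p = 0.348). The feedback inhibitors Socs2 (1.14 ± 0.57) and Cish (1.68 ± 0.86) were not called, and Cish was 3.74 (adjusted p = 0.0287) without control male 3, the control with 10.9 CPM against 1.06 and 1.04 in the others. The male-enriched repressor Bcl6 had 77.4, 77.5 and 7.70 CPM in controls and 7.36, 7.32 and 78.8 CPM in restricted males, so that control male 3 lay with restricted males 1 and 2, and restricted male 3 with control males 1 and 2. Bcl6 was -2.88 (adjusted p = 0.0407) without restricted male 3. Cux2, a female-biased repressor of male genes, had 0.547, 8.04 and 0.841 and 1.32, 2.36 and 1.53 CPM in the males (-0.83 ± 0.88).

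The remaining axis members were not called in edgeR: Prlr (0.32), Jak2 (0.03), Stat5a (0.30), Igfals (0.20), Igfbp1 (0.63), Igfbp2 (0.41), Igfbp3 (0.21), Igfbp4 (0.39), Socs1 (1.03), Socs3 (-0.43), Onecut1 (1.32) and Egfr (-0.68). They comprise receptors, kinases, IGF carriers, inhibitors and regulators of the axis, and their adjusted p-values ran from 0.127 to 0.929.

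**Figure D4:**
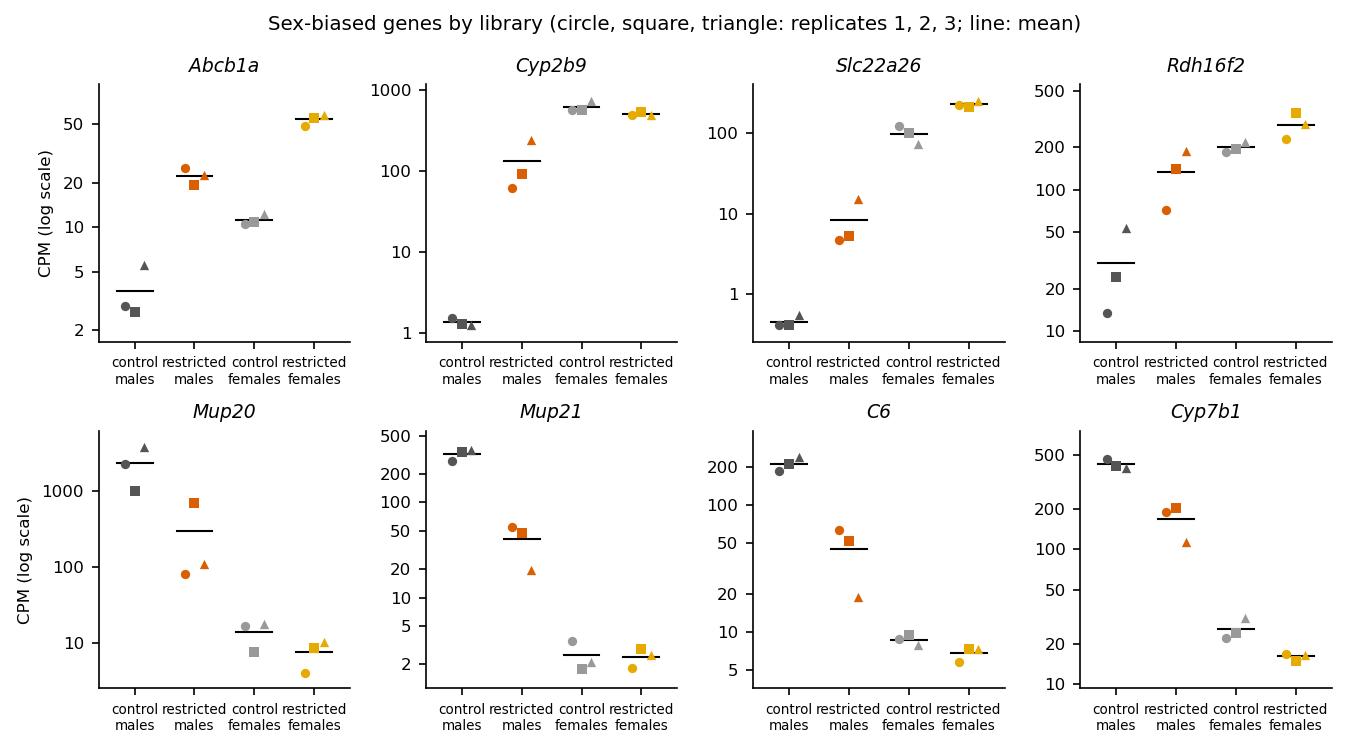
Level of Abcb1a, Cyp2b9, Slc22a26 and Rdh16f2 (upper row) and of 4 male-biased genes (lower row) in each library of 6 months, in CPM on a log axis (n = 3 per group, black line the group mean). Rdh16f2 is in neither list of female-biased genes used here, and the other genes of the upper row are female-biased. In each panel the restricted males lie off the control males toward the female groups, and for Abcb1a they lie above the control females.

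Genes of sugar handling rose in part. Of 21 glycolysis and glycogen genes, 7 rose and 0 fell, with a median of 0.42. Ppp1r3g, a subunit that targets protein phosphatase to glycogen after feeding, stood at 1.28, 3.24 and 0.807 CPM in controls and 58.03, 17.2 and 19.02 CPM in restricted males, with no overlap (4.16 ± 0.84, edgeR adjusted p = 0.00338, and 0.0666 in the fit of the 6 libraries alone). Pklr, the liver pyruvate kinase, went from 90.7, 61.00 and 125 to 160.3, 207 and 205 CPM (1.05 ± 0.28, edgeR adjusted p = 0.0177), and its adjusted p was 0.0669 without restricted male 2, 0.0685 without restricted male 3, 0.0688 without control male 1 and 0.102 without control male 2. Phosphofructokinase Pfkl (0.48), phosphoglycerate kinase Pgk1 (0.39), glycogen synthase Gys2 (0.67), the branching enzyme Gbe1 (0.71) and ketohexokinase Khk (0.73) were the other 5. The adjusted p of Gbe1 was 0.078 without restricted male 2, 0.0798 without control male 1 and 0.0515 without control male 2, and that of Pgk1 was 0.126 without restricted male 2, 0.165 without restricted male 3, 0.155 without control male 1 and 0.115 without control male 3. The count of 7 became 1 without control male 1 or restricted male 2, 2 without control male 2 or restricted male 3, and 0 in the fit of the 6 libraries alone. Of 18 gluconeogenesis and insulin-repressed genes 0 were called (median 0.30): Pck1 had 4083, 7206 and 4792 and 5851, 4907 and 4431 CPM, and G6pc had 255, 558 and 219 and 437, 532 and 489 CPM.

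Lipid genes were mostly not called. The called share of the lipogenesis list lies near the 7.84% called over all tested genes. Of 24 lipogenesis genes, 2 rose and 0 fell. Thrsp (ENSMUSG00000035686, chr7:97412938-97417730), a regulator of fatty acid synthesis, went from 16.9, 5.92 and 35.3 to 126, 216 and 110.0 CPM without overlap (2.95 ± 0.61, edgeR adjusted p = 0.00398). That p was 0.111 in the fit of the 6 libraries alone and 0.0725 without the libraries that hold RNA of another tissue. Dgat2, an enzyme of the last step of triglyceride synthesis, went from 495, 495 and 626 to 786, 948 and 929.6 CPM (0.72 ± 0.18, edgeR adjusted p = 0.0107), and its adjusted p was 0.0501 without restricted male 2 and 0.0591 without control male 1. Fatty acid synthase Fasn (0.14 ± 0.45) and Srebf1 (0.55 ± 0.35), the gene of its regulator SREBP1, were not called. Of 24 cholesterol genes, 3 rose and 0 fell (median 0.47), and Pmvk, a kinase of the mevalonate route, went from 18.6, 15.8 and 19.7 to 44.99, 51.8 and 32.2 CPM (1.25 ± 0.29, edgeR adjusted p = 0.00813, and 0.0701 without the libraries that hold RNA of another tissue). Ebp (0.49) and Acat2 (0.81) were the other 2. For Ebp the adjusted p was 0.155 without restricted male 2, 0.107 without restricted male 3, 0.0974 without control male 1, 0.0703 without control male 2 and 0.104 without control male 3, and that of Acat2 was 0.196 without restricted male 2, 0.112 without control male 1 and 0.105 without control male 2. Over the alternatives 0 to 3 members were called. Of 34 genes of fatty acid oxidation, ketogenesis and PPAR alpha, 0 were called in edgeR (median -0.10), and over the alternatives at most 1 rose and at most 3 fell.

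Of 23 bile acid genes, 4 were called lower and 1 higher. Without control male 1 the 4 became 2 and the 1 became 0. Hsd3b7, an early enzyme of bile acid synthesis, went from 554, 519 and 541 to 258, 328 and 319 CPM (-0.84 ± 0.17, edgeR adjusted p = 0.00228). Abcb4, the canalicular exporter of phosphatidylcholine, went from 698, 647 and 602 to 409, 423 and 479 CPM (-0.57 ± 0.13, edgeR adjusted p = 0.0061, and 0.0519 in the fit of the 6 libraries alone). Klb (-0.48), the co-receptor of FGF15, and Cyp7b1 were the other members that fell, and the bile acid ligase gene Slc27a5 (0.65) rose, with an adjusted p of 0.0875 without restricted male 2, 0.0906 without restricted male 3, 0.0807 without control male 1 and 0.0544 without control male 2. Cyp7a1, the rate-limiting enzyme of the classic route, was not called, at 134, 103 and 75.6 and 83.1, 60.9 and 20.3 CPM. Cystathionine beta-synthase Cbs went from 466, 684 and 364 to 259, 264 and 284 CPM (-0.91 ± 0.20, edgeR adjusted p = 0.00523), with an adjusted p of 0.0592 without control male 2, and 1 of the 16 methionine and one-carbon genes rose (Pemt, 0.68, with an adjusted p of 0.0703 without restricted male 2, 0.0567 without restricted male 3 and 0.0799 without control male 1). Of 24 amino acid and urea cycle genes 3 rose, among them Fah (0.48), an enzyme of tyrosine breakdown, and proline dehydrogenase Prodh (0.81). The adjusted p of Fah was 0.101 without restricted male 2, 0.0913 without restricted male 3, 0.108 without control male 1 and 0.0688 without control male 3, and that of Prodh was 0.0534 without restricted male 1, 0.165 without restricted male 2, 0.0851 without restricted male 3, 0.217 without control male 1, 0.0576 without control male 2 and 0.0648 without control male 3.

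In the drug and steroid metabolism list 10 of 26 members were called higher and 0 lower, with a median of 0.84. Por, the electron donor of microsomal P450 enzymes, went from 567, 1060.0 and 588 to 1795, 1713 and 1584 CPM (1.20 ± 0.22, edgeR adjusted p = 0.0011). Abcb1a (ENSMUSG00000040584, chr5:8660077-8748575), an efflux pump, went from 2.92, 2.68 and 5.55 to 25.2, 19.3 and 22.8 CPM without overlap (2.58 ± 0.34, edgeR adjusted p = 3.58e-05). Cyp2a5, a pericentral P450 enzyme, went from 517, 448 and 1086 to 2794, 3318 and 3542 CPM (2.23 ± 0.49, edgeR adjusted p = 0.00583, and 0.0679 without the libraries that hold RNA of another tissue), and Cyp2b10, a target of the receptor CAR, from 0.620, 1.40 and 0.471 to 12.4, 15.6 and 4.35 CPM (3.72 ± 0.88, edgeR adjusted p = 0.00983). Members of the Cyp2a and Cyp2b families are close paralogs, so single values are less certain. The xenobiotic receptor gene Nr1i2 (0.60) rose too. The count of 10 became 6 without control male 1 and 5 without control male 3.

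Of 22 NRF2 targets and glutathione transferases, 6 rose and 2 fell (median 0.59). Gstt1 went from 135, 119 and 135 to 229, 349.7 and 347 CPM (1.25 ± 0.22, edgeR adjusted p = 0.000911), Gstt3 from 14.2, 16.6 and 11.9 to 32.9, 42.9 and 50.7 CPM (1.57 ± 0.34, edgeR adjusted p = 0.0047), and Gsta3 changed by 1.08 ± 0.25. These encode enzymes that couple glutathione to reactive compounds. Srxn1, a repair enzyme for peroxiredoxins and a classic NRF2 target, fell from 35.7, 42.9 and 42.8 to 15.1, 18.6 and 21.03 CPM (-1.15 ± 0.18, edgeR adjusted p = 0.000271). Single libraries mattered to both numbers: the 6 were 3 without control male 1, control male 2 or restricted male 2, and the 2 were 1 without control male 1, control male 3, restricted male 1 or restricted male 3.

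Several stress and defence lists held single changes. Over all tested genes 7.84% were called, and the called shares of the ATF4 target and interferon lists lie near that. Their counts describe single genes rather than the lists. Atf5, a transcription factor of the mitochondrial and amino acid stress responses, went from 485, 632 and 496 to 128, 151 and 229 CPM without overlap (-1.67 ± 0.23, edgeR adjusted p = 4.53e-05), while 1 other of the 21 ATF4 target genes was called (Slc3a2, 0.53, with an adjusted p of 0.0919 without restricted male 2, 0.0875 without restricted male 3, 0.121 without control male 1 and 0.0884 without control male 2). Of 28 acute phase and complement genes 3 rose and 1, C9, fell. Orm2, an acute phase glycoprotein, went from 4.30, 2.68 and 5.58 to 32.2, 21.3 and 22.3 CPM (2.59 ± 0.55, edgeR adjusted p = 0.00468). Saa3 had 2.08, 3.52 and 2.56 CPM in controls and 2.29, 2.98 and 24.2 CPM in restricted males, so its called change (1.85 ± 0.57) rested on restricted male 3 and was -0.04 without that library. Its adjusted p was 0.973 without restricted male 3, 0.155 without control male 1, 0.0683 without control male 2 and 0.117 without control male 3. Crp changed by 0.71, with an adjusted p of 0.301 without restricted male 3, 0.135 without control male 1 and 0.0554 without control male 3. Of 26 interferon response genes, Oasl1 (-1.83) and Rsad2 (-1.51) fell. The adjusted p of Oasl1 was 0.101 without restricted male 1, 0.175 without restricted male 3, 0.139 without control male 1 and 0.115 without control male 3, and that of Rsad2 was 0.106 without restricted male 1, 0.131 without restricted male 2, 0.104 without restricted male 3, 0.311 without control male 1 and 0.0585 without control male 3. Over the alternatives 0 to 4 were called.

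Among 21 cytosolic and mitochondrial heat shock genes, Hspd1 (0.40) and Hspe1 (0.48), the chaperonin pair of the mitochondrial matrix, rose and Hspa4 (-0.43), a cytosolic exchange factor, fell (adjusted p = 0.0657 for Hspa4 in the fit of the 6 libraries alone). The adjusted p of Hspd1 was 0.0561 without restricted male 1, 0.06 without restricted male 2, 0.161 without restricted male 3, 0.145 without control male 1 and 0.12 without control male 2, and that of Hspe1 was 0.138 without restricted male 2, 0.218 without restricted male 3, 0.197 without control male 1, 0.0617 without control male 2 and 0.0749 without control male 3. Of 17 iron genes, Tfrc, the transferrin receptor, fell from 19.2, 24.1 and 13.3 to 12.05, 6.73 and 7.16 CPM (-1.12 ± 0.30, edgeR adjusted p = 0.0198), with an adjusted p of 0.115 without restricted male 2, 0.102 without restricted male 3, 0.0583 without control male 1 and 0.0991 without control male 2. Steap3 (-0.61) fell, with an adjusted p of 0.186 without restricted male 1, 0.176 without restricted male 3, 0.179 without control male 1, 0.0643 without control male 2 and 0.0876 without control male 3, and Aco1 (0.51) rose (adjusted p = 0.0733 for Aco1 in the fit of the 6 libraries alone). Of 22 plasma protein genes, albumin rose from 45290.0, 57985 and 60378 to 78561, 89065 and 112780.0 CPM (0.78 ± 0.19, edgeR adjusted p = 0.0102), with an adjusted p of 0.0813 without restricted male 3 and 0.0765 without control male 1, and Apoa5 changed by 0.50, with an adjusted p of 0.0541 without restricted male 2, 0.0523 without restricted male 3, 0.0771 without control male 1 and 0.0871 without control male 3. The called share of the plasma protein list lies near the 7.84% called over all tested genes. Of 27 autophagy and lysosome genes 2 rose (Hexa, 0.81, and Bnip3, 0.41) and 1 fell (Gaa, -0.44). For Hexa the adjusted p was 0.0537 without restricted male 3, that of Bnip3 was 0.137 without restricted male 2, 0.114 without restricted male 3, 0.154 without control male 1 and 0.133 without control male 3 and that of Gaa was 0.125 without restricted male 1, 0.25 without restricted male 2, 0.0903 without control male 1, 0.202 without control male 2 and 0.0648 without control male 3. In edgeR 0 of 17 glucocorticoid-responsive genes and 0 of 23 cell cycle genes were called, with medians of -0.13 and -0.15.

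Outside the lists, large and separate changes were seen in few named genes. Rab36, a small GTPase, fell from 14.4, 18.1 and 13.7 to 1.78, 2.46 and 2.05 CPM (-2.87 ± 0.30, edgeR adjusted p = 1.5e-06), with all 3 restricted livers far below the lowest control. Dsg1c, a desmosomal cadherin, rose from 8.86, 9.64 and 12.3 to 63.1, 44.7 and 57.5 CPM (2.42 ± 0.45, edgeR adjusted p = 0.00165). Crym, a thyroid hormone-binding protein, rose from 9.002, 5.28 and 4.58 to 22.2, 29.5 and 24.5 CPM (2.01 ± 0.37, edgeR adjusted p = 0.00138). Tnfaip3, an inhibitor of NF-kappa-B signalling, rose from 2.30, 4.52 and 3.13 to 23.4, 4.89 and 8.97 CPM (1.91 ± 0.41, edgeR adjusted p = 0.00468), carried mainly by restricted male 1, and was 1.06 (adjusted p = 0.071 without restricted male 1), the library with the highest level. The adjusted p of Tnfaip3 was 0.171 in the fit of the 6 libraries alone. Tsc22d1, a leucine zipper protein, fell from 158, 39.7 and 121 to 16.4, 30.9 and 25.03 CPM (-2.14 ± 0.60, edgeR adjusted p = 0.0287), and its adjusted p was 0.0877 without restricted male 1, 0.0657 without restricted male 2, 0.0922 without restricted male 3, 0.128 without control male 1 and 0.0701 without control male 3.

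The females of 6 months, which share no library with the males, gave 2523 called genes (17.0% of 14816). Restricted female 2 also held muscle RNA, with 41337 counts of the skeletal muscle list against 6514 in restricted male 2. Of the 11 muscle markers tested, 10 were called higher in restricted females. The part of this RNA in the female calls was not tested. Of the 1162 genes called in males, 678 were called in the same direction in females, which is 58.3% of the male list and 26.9% of the female list, and 1 was called in the opposite direction. Genes are not independent replicates, and as a description over all 14816 of them the changes of the sexes correlated with r = 0.524 (Spearman rho = 0.521). The test of the difference between the sexes called 1 gene (0.00675%), Cyp2b9, at 6.87 ± 0.77 (edgeR adjusted p = 3.08e-05), with 1194 genes at an unadjusted p under 0.05 and 27 called by DESeq2. Hspa5 fell in females (-1.81 ± 0.34) and in males (-1.85 ± 0.34), with a difference of -0.04 ± 0.47 (edgeR adjusted p = 0.994). The median of the 22 ER chaperones was -0.82 in females and -0.88 in males. Control female 3 stood above the other control females for Hspa5 (899, 671 and 1750.4 CPM), as control male 3 did among the males.

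Other differences between the sexes were large in size but not called. For Mup21 the change was -0.06 ± 0.47 among females, with 3.53, 1.78 and 2.12 CPM in their controls, against -2.97 ± 0.43 among males (difference -2.91 ± 0.62, edgeR adjusted p = 0.133). Mup21 did not stand for its family, which fell in both sexes. Of its 19 tested members, 8 were called lower in females and 9 in males, with medians of -2.56 and -2.72. The male-biased list had a median of -0.08 in females and -0.49 in males, and the female-biased list 0.20 and 0.39. Proteasome subunits fell in 27 of 32 cases in females and 11 of 32 in males, with medians of -0.57 and -0.29, and 0 of the 32 differed between the sexes in that test. Thrsp had changes of 4.90 ± 0.67 and 2.95 ± 0.61 in the same order (difference -1.95 ± 0.82, edgeR adjusted p = 0.549).

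**Figure D5:**
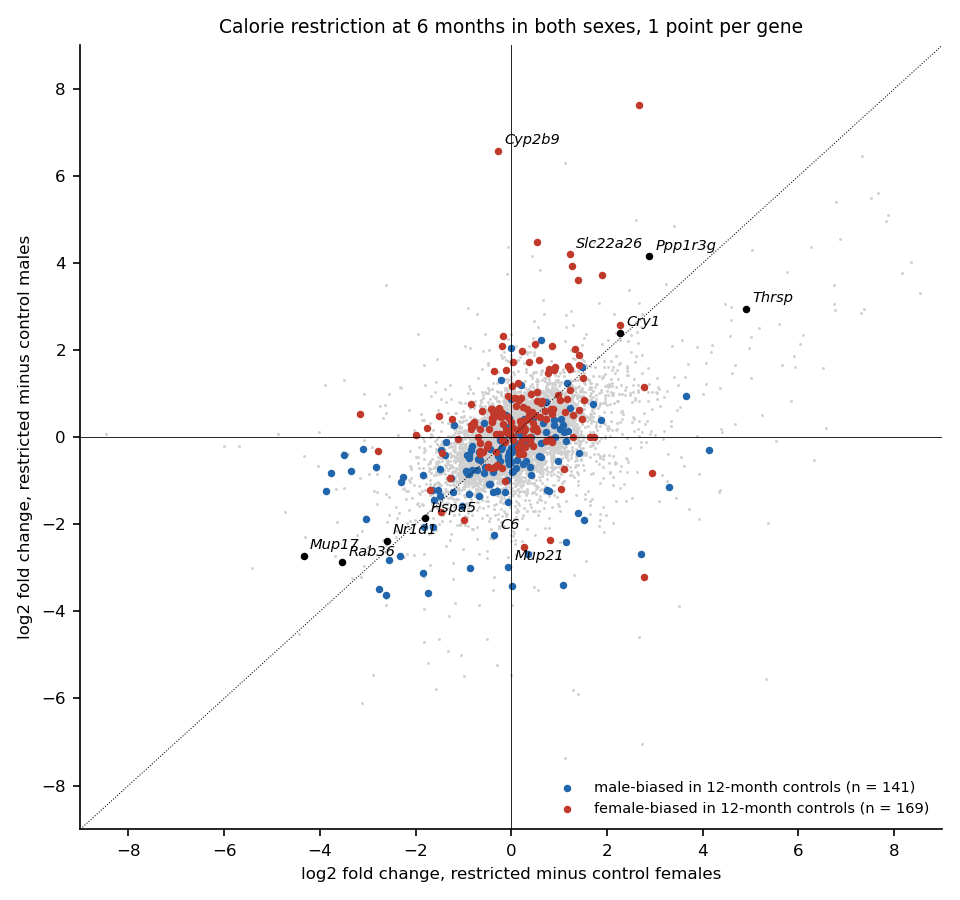
Each point is 1 of the 14816 genes, with its log2 fold change under restriction in females on the horizontal axis and in males on the vertical axis, and the dotted line marks equal change (11 genes lie outside the axes). Blue and red points are genes that were male-biased and female-biased in 12-month controls, and black points are other named genes. Cyp2b9, at 6.59 in males and -0.28 in females, is the gene called for a difference between the sexes.

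The males of 12 months had been restricted for 8 months, so age and duration cannot be told apart in that comparison. Their libraries were also a separate set, with 16732067 to 19636047 assigned counts against 25888571 to 32332011 at 6 months. Any other difference between these sets cannot be told apart from age and duration either. In a fit of both ages together they gave 981 called genes of 15159 (6.47%). Over the 14736 genes tested in both fits, 195 genes were called in the same direction at both ages, 16.8% of the 6-month list and 20.04% of the 973 genes of the 12-month list, and 13 in opposite directions. The log2 fold changes correlated across these genes with r = 0.224 (Spearman rho = 0.211). The effect differed between the ages for 231 genes (1.52%), higher at 12 months for 147 and lower for 84. That count became 123 without restricted male 1 of 6 months, 139 without restricted male 2 and 120 without control male 2 of that age. It became 135 without restricted male 1 of 12 months, 107 without restricted male 2, 137 without control male 1 and 121 without control male 3 of that age.

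The ER chaperones were among the genes whose effect differed. Of the 22 genes, 9 had an effect that was higher at the later age and 0 one that was lower, and the list median at 12 months was 0.35. Within the 12-month males themselves, 1 of the 22 was called higher under restriction and 0 lower. The count of 9 became 5 without restricted male 1 and 4 without control male 3 of 6 months, and 3 without restricted male 1 and 5 without restricted male 2, control male 1 or control male 3 of 12 months. It was 5 with only the groups compared and 5 without the libraries that hold RNA of another tissue. At 12 months Hspa5 had 942, 1356 and 889.7 CPM in control males and 2505, 1735 and 1149.9 CPM in restricted ones, on the scale of the joint fit. Its change there was 0.76 ± 0.33, and the difference from 6 months was 2.62 ± 0.47 (edgeR adjusted p = 0.00199). Hyou1 differed by 2.88 ± 0.56 (edgeR adjusted p = 0.00356) and Manf by 2.83 ± 0.64 (edgeR adjusted p = 0.0128). The difference for Manf was not called without control male 3 of 6 months (2.36, adjusted p = 0.0613). Rab36, lowered at 6 months, changed by -0.33 ± 0.36 at 12 months (difference 2.55 ± 0.51, edgeR adjusted p = 0.00403), and Srxn1 by -0.05 ± 0.19 (difference 1.10 ± 0.27, edgeR adjusted p = 0.0202). The difference for Srxn1 was not called in 7 of 18 alternatives (adjusted p up to 0.103), including those without restricted male 1 or control male 2 of 6 months, or restricted male 1 or 2 or control male 3 of 12 months (0.0552 to 0.103).

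For other genes the difference between the ages was not called. Cry1 changed by 2.35 ± 0.28 at 12 months, a difference of -0.05 ± 0.38 (edgeR adjusted p = 0.988). Cyp2b9 changed by 3.45 ± 0.70 (difference -3.13 ± 0.97, edgeR adjusted p = 0.0921). C9 changed by -1.23 ± 0.21, Por by 1.30 ± 0.34 and Cbs by -0.97 ± 0.21, each with a difference from 6 months of at most 0.10 in size. The summed major urinary proteins took 2.41%, 2.14% and 2.67% of counts in 12-month control males and 0.976%, 1.63% and 0.904% in restricted ones, with no overlap at that age either.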

How the data were processed

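Per the submitters' processing notes, which give names and versions but no settings, base calling used bcl2fastq 1.8.4, trimming Trimmomatic 0.32, alignment STAR 2.5.2b and counting featureCounts 1.5, with GRCm38 (mm10). Libraries were made with the TruSeq v2 kit, per the labels. The deposited values are raw counts per gene for 43629 genes in 78 libraries, and the strand setting of the counting is not given in the sources used here, so overlapping and antisense genes cannot be told apart.

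Genes were filtered with filterByExpr, scaled by TMM and tested with edgeR 4.0.16 (robust quasi-likelihood fit, R 4.3.3). The fit of all 36 libraries of 6 months shared 1 estimate of spread, and a fit of 60 libraries gave the difference between male ages. Calls are at a Benjamini-Hochberg adjusted p under 0.05 over all tested genes, and an SE is the size of the log2 fold change divided by the square root of F. Sex-biased lists came from a fit of the 24 libraries of 12 months (adjusted p under 0.05 and at least 2-fold). The procedure was tested on simulated data.

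Of 991 gene list entries 990 were matched. Members and lists were chosen with earlier results of these data known. Named genes were at most 15 per direction by size of change among called genes with non-overlapping libraries and a mean log2 CPM of at least 2, at most 4 per list by adjusted p, all growth hormone axis and core clock genes, at most 5 per direction for each difference of effects, and Cyp2b9. Predicted genes were left out, and further list members are given as values chosen after those values were seen. The alternatives were RLE size factors, no filter, a replicate block, only the groups compared, no library with RNA of another tissue, leaving out each library, and DESeq2 1.42.0. A library of any group in the fit held RNA of another tissue where a muscle, kidney, pancreas, adrenal or adipose marker list summed to over 1000 counts.

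No pair of libraries agreed within sampling noise. Promoter sequences and their starts are from RefSeq. Gene spans printed with gene identifiers are from GENCODE, and for Hspa5 and Cry1 the printed promoter overlaps that span. Some results are not reported here.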

Additional observations from a re-analysis of the deposited data

Results flagged for a closer look

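Under restriction, 1 gene differed in effect between males and females of 6 months by the test of that difference. Cyp2b9 differed by 6.87 on the log2 scale (edgeR adjusted p = 3.08e-05), with 1.53, 1.28 and 1.24 CPM in control males, 60.8, 91.8 and 238 in restricted males, 559, 559 and 724 in control females and 484, 538 and 492 in restricted females.

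The next genes differed in effect between males of 12 and 6 months (12 minus 6, edgeR test of the difference), where age, duration of restriction and the set of libraries cannot be told apart. With only the groups compared, none of those below was called except Tfrc and Creld2, and without the libraries that hold RNA of another tissue Cyp4a14, Creld2, Cyp2c55, Depp1, Cxcl1 and Nr1d1 were not called. Tfrc was called in all 18 alternatives (highest adjusted p = 0.0208). Those with a higher effect at 12 months included 2 fatty acid hydroxylase genes that PPAR alpha controls, which are near-identical to others of their family. Cyp4a14 differed by 7.60 (edgeR adjusted p = 0.00674), from 2002, 2012 and 1772 to 349, 1208 and 924 CPM at 6 months and from 3.23, 2.01 and 4.73 to 108, 4.64 and 715 CPM at 12 months. The difference for Cyp4a14 was not called in 3 of 18 alternatives (adjusted p up to 0.113), including those without restricted male 3 of 12 months (0.052). Cyp4a10 differed by 5.77 (edgeR adjusted p = 0.00158), from 2779.8, 1892 and 2129 to 706, 1172 and 1685 CPM and from 19.5, 5.87 and 26.5 to 600.1, 50.5 and 831 CPM. Its difference was not called in 1 of 18 alternatives, the one with only the groups compared (adjusted p = 0.0736).

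Derl3, of ER-associated degradation, differed by 6.25 (edgeR adjusted p = 0.0104), with 1.18, 2.64 and 2.45 CPM in controls and 14.5, 3.16 and 1.47 in restricted males at 12 months. The Derl3 difference was not called in 3 of 18 alternatives (adjusted p up to 0.112), including those without control male 3 of 6 months, or restricted male 1 of 12 months (0.069 to 0.088). Creld2, of the ER lumen, differed by 3.65 (edgeR adjusted p = 0.0201), with 53.6, 129.7 and 72.7 and 342, 255 and 103 CPM at 12 months. The Creld2 difference was not called in 7 of 18 alternatives (adjusted p up to 0.0757), including those without restricted male 1 or control male 3 of 6 months, or restricted male 1 or 2 or control male 1 or 3 of 12 months (0.0526 to 0.0757). Tfrc, the transferrin receptor, differed by 4.02 (edgeR adjusted p = 0.000461), with 26.4, 11.2 and 10.4 and 141, 139 and 77.4 CPM at 12 months. The 6-month levels of these 3 genes stand in the report.

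The effect was lower at 12 months for 5 named genes. Cyp2c55, a P450 gene, differed by -3.69 (edgeR adjusted p = 0.0457), from 1.19, 1.05 and 1.72 to 3.11, 5.42 and 3.49 CPM at 6 months and from 24.3, 33.8 and 5.39 to 9.41, 3.87 and 1.59 CPM at 12 months. The difference for Cyp2c55 was not called in 13 of 18 alternatives (adjusted p up to 0.161), including those without restricted male 1, 2 or 3 or control male 1, 2 or 3 of 6 months, or restricted male 2 or 3 or control male 1 or 2 of 12 months (0.059 to 0.119). Depp1, a FOXO target, differed by -3.42 (edgeR adjusted p = 0.0202), from 92.6, 129 and 26.4 to 181, 186 and 185 and from 57.9, 20.04 and 59.4 to 3.60, 19.02 and 5.997 CPM. The Depp1 difference was not called in 7 of 18 alternatives (adjusted p up to 0.153), including those without control male 3 of 6 months, or restricted male 1 or 3 or control male 1 or 3 of 12 months (0.0577 to 0.0755). The chemokine gene Cxcl1 differed by -3.26 (edgeR adjusted p = 0.0434), from 3.52, 2.05 and 8.38 to 29.4, 12.1 and 8.90 and from 6.67, 9.04 and 16.6 to 1.98, 4.13 and 5.997 CPM. The difference for Cxcl1 was not called in 11 of 18 alternatives (adjusted p up to 0.16), including those without restricted male 1 or 2 or control male 1 or 2 of 6 months, or restricted male 1 or 2 or control male 2 or 3 of 12 months (0.0514 to 0.16). Tlr2, a receptor of innate immunity, differed by -2.87 (edgeR adjusted p = 0.00647), with 1.33 to 1.4999 CPM in controls and 3.11, 1.56 and 11.7 CPM in restricted males at 6 months and from 1.95, 2.54 and 2.78 to 1.08, 1.22 and 1.53 CPM at 12 months. The Tlr2 difference was not called in 2 of 18 alternatives (adjusted p up to 0.127), including those without restricted male 3 of 6 months (0.108). The value without that library was -1.64.

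Nr1d1 differed by -2.48 (edgeR adjusted p = 0.0489), with 154, 57.6 and 121 CPM in 12-month controls and 1.20, 2.51 and 7.71 CPM in restricted males of that age. The difference for Nr1d1 was not called in 13 of 18 alternatives (adjusted p up to 0.219), including those without restricted male 1, 2 or 3 or control male 2 or 3 of 6 months, or restricted male 1 or 2 or control male 1 or 3 of 12 months (0.0646 to 0.161).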

How the results depend on the processing

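Of 97 named genes called in males of 6 months, 52 were called in all 6 fits that leave out 1 library and 33 in all alternatives, and 52 were not called when only the 6 libraries entered the fit. The 1162 calls in males became 723 with no filter on low counts, 351 with only the groups compared and 365 without libraries holding RNA of another tissue. Leaving out 1 library gave 553 to 1258 calls, of which 553, 559, 593 and 768 moved by over 1.5 times. Relative log expression size factors gave 1129 and DESeq2 1613, and 0 genes called in both the reported fit and an alternative had opposite signs. The log2 fold change of Saa3 was -0.0404 (adjusted p = 0.973) without restricted male 3, and 2.32 without restricted male 1, the highest of the fits that leave out 1 library.

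The single call for the difference between the sexes became 2 without control male 2, 3 without restricted male 1 and 27 with DESeq2, so leaving out 1 library gave 1 to 3. The 231 calls for the difference between the ages became 114 with no filter, 139 with only the groups compared, 79 without libraries holding RNA of another tissue and 430 with DESeq2. Leaving out 1 library gave 107 to 233, without restricted male 2 of 12 months and without restricted male 3 of 12 months. With 3 livers a group, depth limits genes of under about 1 CPM, such as Npas2.

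Replicate numbers did not pair the males: same-numbered samples deviated together with r = 0.13, -0.11 and -0.05. With a replicate block 1308 genes were called in males, 1 for the difference between the sexes and 240 for that between the ages.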
